A study of Macaca radiata with 6 samples.

Results

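CP encodes ceruloplasmin, a copper-carrying enzyme of blood plasma that oxidises iron. All 4 probe sets whose single annotated symbol is CP were taken from a table of 52865 probe sets, and each is given separately below. The arrays measured the corpus luteum, the ovarian gland that makes progesterone after ovulation, of female bonnet monkeys (Macaca radiata). A group of 3 arrays came from animals given 3 intramuscular injections of prostaglandin F2-alpha (PGF2alpha, 59 µg/kg), which induces regression of the gland, and a group of 3 came from animals given phosphate-buffered saline as vehicle. Both groups were treated on day 10 of the luteal phase and sampled 24 h later, the tissue was whole corpus luteum, and the probes were designed for the rhesus macaque. The labels give 3 animals per group without tying an array to an animal, so a p-value here reflects only how much these samples vary. CP was chosen for this description from the same contrast in earlier results on these arrays, where its difference was among the largest, so its values are described here with no test.

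Ceruloplasmin is made mainly by the liver and binds most of the copper in plasma. It oxidises ferrous to ferric iron, which lets iron that leaves a cell through ferroportin load onto transferrin. It is also an acute phase protein, made in larger amounts during inflammation, and activated macrophages are among the other cells known to make it. The regressing corpus luteum loses steroid output and takes in immune cells. The probe sequences and their places in the transcript were not used here.

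CP signal was low on the vehicle arrays and higher on the PGF2alpha arrays for 3 of the 4 probe sets, and it varied widely among the treated arrays. Signals are Affymetrix MAS5 units on a linear scale, comparable between arrays for one probe set but not between probe sets. The probe set MmugDNA.4235.1.S1_at read 7896, 4136 and 378 on PGF2alpha replicates 1, 2 and 3 and 129, 5.76 and 13.5 on vehicle replicates 4, 5 and 6. Every treated value lay above every vehicle value, and replicate 3 stood nearest to the vehicle arrays. The group means were 4137 ± 3759 and 49.4 ± 69.0 (SD, n = 3), a difference of 5.01 (SE 1.42) on the log2(signal + 40) scale.

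The probe set MmugDNA.18925.1.S1_at, which had the highest mean log2 level, read 4585, 2592 and 387 on the treated arrays and 118, 13.5 and 106 on the vehicle arrays. The groups again did not overlap. Its means were 2522 ± 2099.8 and 79.0 ± 57.1 (SD, n = 3), with a log2 difference of 4.02 (SE 1.15). For Mmu.3346.2.S1_at the treated signals were 2716, 1341 and 246 and the vehicle signals 77.9, 36.3 and 10.6, also without overlap, with a log2 difference of 3.74 (SE 1.03).

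The probe set MmugDNA.351.1.S1_at gave another picture. It read 425, 82.7 and 49.1 after PGF2alpha and 5.73, 74.7 and 40.9 after vehicle. Only replicate 1 stood clear of the vehicle arrays, and the other treated values overlapped them. Its log2 difference was 1.19 (SE 0.83). It did not pass the brightness filter of the tests used below, which asks that the signal reach the array's own median on 3 or more of the 6 arrays. The other 3 CP probe sets passed it. For Mmu.3346.2.S1_at and MmugDNA.18925.1.S1_at only the 3 treated arrays reached their median, and for MmugDNA.4235.1.S1_at vehicle replicate 4 did so too. A probe set that passes through one group alone had to differ, so the number that passed says nothing about CP. Groups without overlap and higher after PGF2alpha occurred in 9.21% of all 52766 probe sets other than controls.

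**Figure D1:**
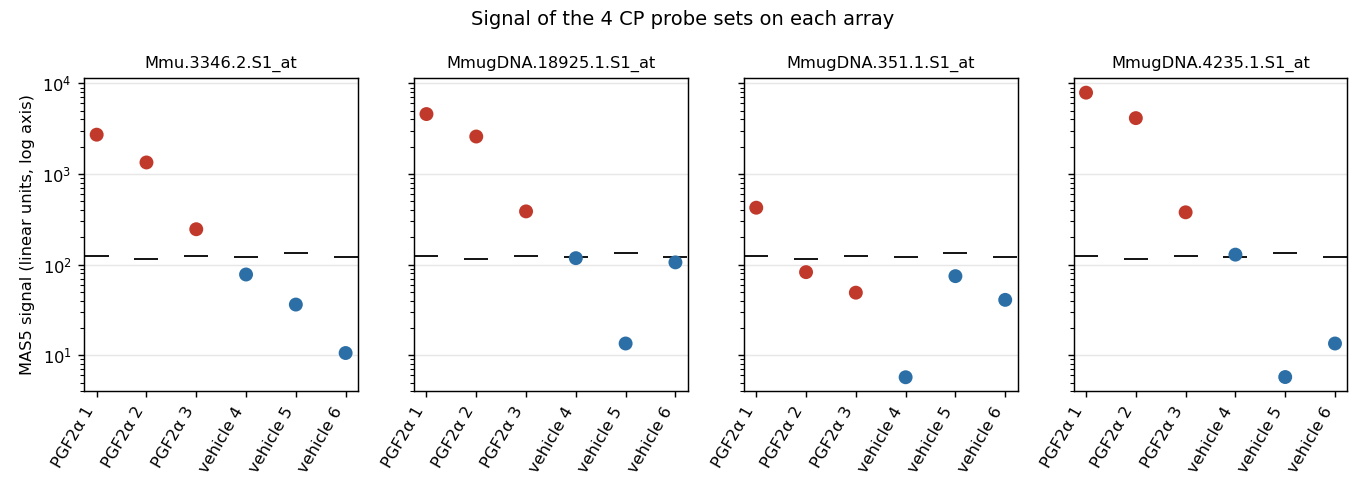
MAS5 signal (log axis) of each CP probe set on the 3 PGF2alpha arrays (red) and the 3 vehicle arrays (blue), 1 point per array, with a black dash at the median signal of that array. In 3 panels every red point lies above every blue point and replicate 3 is the lowest red point. In the panel of MmugDNA.351.1.S1_at only replicate 1, at 425, stands above the dashes.

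Position within an array shows the same spread without any pseudocount. On PGF2alpha replicate 1 the probe set MmugDNA.4235.1.S1_at lay at percentile 98.3 of all signals, on replicate 2 at 96.2 and on replicate 3 at 70.7. On vehicle replicates 4, 5 and 6 it lay at percentiles 51.2, 3.48 and 11.4. The corresponding positions of MmugDNA.18925.1.S1_at were 96.7, 93.6 and 71.1 after PGF2alpha and 49.0, 10.7 and 46.6 after vehicle. All vehicle signals of Mmu.3346.2.S1_at and of MmugDNA.18925.1.S1_at were below the median of their array. No detection call was used, so vehicle CP could not be set against background, and the sizes of the differences are uncertain. With pseudocounts of 10 and 160 in place of 40 the difference of MmugDNA.18925.1.S1_at was 4.58 and 3.04, that of MmugDNA.4235.1.S1_at 5.97 and 3.71, and that of Mmu.3346.2.S1_at 4.49 and 2.59.

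The treated arrays differed among themselves more in CP than in nearly every other tested gene. The signal of MmugDNA.18925.1.S1_at on PGF2alpha replicate 1 was 1.77 times that on replicate 2 and 11.8 times that on replicate 3. The same ratios were 2.03 and 11.0 for Mmu.3346.2.S1_at and 1.91 and 20.9 for MmugDNA.4235.1.S1_at. These 3 probe sets thus placed the treated arrays in one order with similar steps between replicates 1 and 2. The SD of the treated log2 values was 1.80 for CP, read from MmugDNA.18925.1.S1_at, against a median of 0.21 over 9980 tested genes, and it was larger in only 5 of them. By size of the log2 difference CP stood at rank 8 among the same genes, a description of the values that chose it.

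Replicate 3 was the lowest treated array for many genes besides CP. Of 375 genes higher after PGF2alpha (adjusted p under 0.05 by limma, described below), it was lowest in 274 (73.1%), compared with 33.7% of all tested genes. Its CP level was still above the vehicle mean, by 2.49 on the log2 scale for MmugDNA.4235.1.S1_at, against 6.73 in replicate 1 and 5.81 in replicate 2. Without replicate 3 the group difference of MmugDNA.18925.1.S1_at was 5.03, without replicate 1 it was 3.31 and without replicate 2 it was 3.71. Without vehicle replicate 5, whose signal was the lowest, it was 3.51, and without vehicle replicates 4 and 6 it was 4.30 and 4.24.

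By the hybridisation times in the scanner files, PGF2alpha replicate 2 and vehicle replicate 4 formed a run of their own (run 2), and the other 4 arrays formed run 1. CP was higher after PGF2alpha within each run. The difference was 3.99 in run 1 and 4.06 in run 2 for MmugDNA.18925.1.S1_at, 5.20 and 4.63 for MmugDNA.4235.1.S1_at, 3.84 and 3.55 for Mmu.3346.2.S1_at, and 1.08 and 1.42 for MmugDNA.351.1.S1_at. Run 2 holds 1 array of each group. RNA quality, read from control probe sets as the 3-prime signal over the 5-prime signal, overlapped between the groups. It lay between 1.73 and 1.78 after PGF2alpha and between 1.49 and 2.25 after vehicle for beta-actin, and between 1.39 and 1.68 and between 1.41 and 1.73 for GAPDH.

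Cell type markers were read beside CP because whole tissue was measured, where fewer cells of a type and less RNA per cell cannot be told apart. A marker list was summed over the brightest probe set of each gene named on the array. The luteal steroidogenic list, with 8 of its 11 genes named, summed to 79285, 87389 and 143052 on PGF2alpha replicates 1, 2 and 3 and to between 161008 and 190817 on the vehicle arrays. This sum was lowest on the array where CP was highest, and replicate 3 was again the treated array nearest to vehicle. In this list 2 of 8 tested genes, STAR and the androgen-forming CYP17A1, fell and 0 rose by limma, against 2.31% lower and 3.76% higher among all tested genes. The count that fell was 0 without PGF2alpha replicate 1 or 2, 5 without replicate 3 and 1 without each of the vehicle arrays. No member lay below the array median on all 6 arrays. STAR, which carries cholesterol into mitochondria and marks steroid-making cells, was abundant in vehicle tissue at 63395 ± 7411 (SD, n = 3), as the tissue label implies. On the vehicle arrays its signal was 83.4 to 95.3% of the highest signal of any probe set, and whether it was near saturation was not tested. Its fall of 0.67 on the log2 scale only just passed (adjusted p = 0.0497 by limma). A term for the run raised that p to 0.0572, and dropping any single array but PGF2alpha replicate 3 also ended the call.

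Macrophage and monocyte markers summed to 52539, 86287 and 58538 after PGF2alpha and to between 21312 and 36019 after vehicle. LYZ was the largest part of each sum, at 24759, 52126 and 28125 after PGF2alpha and 21139, 12460 and 19946 after vehicle. It was not called (adjusted p = 0.104 by limma). The highest sum was on replicate 2, whereas CP was highest on replicate 1. Of 14 tested macrophage markers 7 rose and 0 fell by limma, beside 3.76% higher and 2.31% lower among all tested genes. With no filter 6 of the 7 were also called. The receptor MARCO entered the test only through its treated arrays and was also called with no filter (adjusted p = 0.0144 by limma). For the whole list, leaving out PGF2alpha replicate 1, 2 or 3 in turn gave 3, 2 or 8 that rose. Leaving out vehicle replicate 4, 5 or 6 gave 6, 4 or 2. Neutrophil markers summed to 24052, 31756 and 12964 after PGF2alpha and to between 3924 and 7089.9 after vehicle. LCN2 was the largest part of each sum, at 11367, 12180 and 7006 after PGF2alpha and 3056, 6486 and 2954 after vehicle. It made up most of every vehicle sum. Of 5 tested neutrophil genes 4 rose (S100A8, S100A9, MMP9 and LCN2) and 0 fell, beside the same shares of all tested genes. With no filter 3 of the 4 were also called. Leaving out PGF2alpha replicate 1, 2 or 3 in turn gave 3, 3 or 5 that rose. Leaving out vehicle replicate 4, 5 or 6 gave 4, 4 or 3. The neutrophil granule genes MPO, ELANE and MMP8 and the calgranulin S100A12 were below the array median on all 6 arrays. FCGR3 stood at 1.18 and was not called (adjusted p = 0.0506 by limma). CSF3R and CAMP, not tested, had log2 differences of 1.09 and 0.87. The part of these cells in the CP signal was not tested.

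Hepatocytes, the main source of plasma ceruloplasmin, had 11 markers named on the array. Of these, 7 lay below the array median on all 6 arrays, namely the fibrinogen chains FGA, FGB and FGG, the apolipoproteins APOA2 and APOH, the fetuin AHSG and hemopexin (HPX). The list summed to between 9129.6 and 11409 after PGF2alpha and to between 11716 and 15585 after vehicle, so its sum did not rise with CP. Most of each sum came from the apolipoprotein APOA1, at 5683, 8532 and 6194 after PGF2alpha and 7893, 7571 and 11786 after vehicle. Read from its probe set of highest mean, the only tested member that passed was AMBP, the precursor of bikunin, which fell by 1.26 (adjusted p = 0.0260 by limma). It passed the brightness filter only through the vehicle arrays, and with no filter it was not called (adjusted p = 0.0577). The call was also lost without PGF2alpha replicate 1 or 2 (adjusted p = 0.0523 and 0.0862) and without vehicle replicates 4, 5 and 6 (adjusted p = 0.0870, 0.0595 and 0.107). SERPINA1, another member, rose in some but not all of its other probe sets, described with the acute phase proteins.

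**Figure D2:**
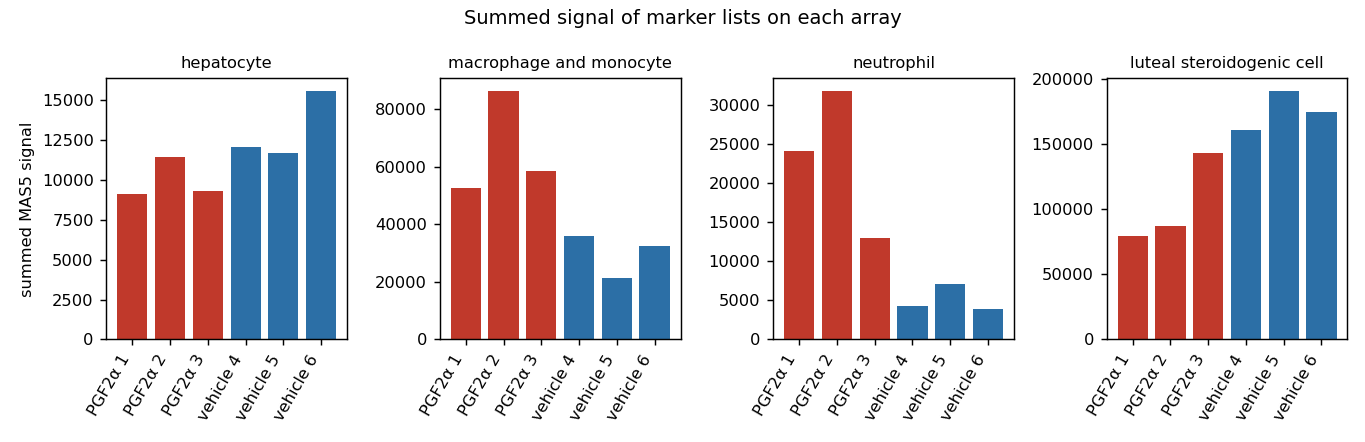
Summed MAS5 signal of 4 marker lists on each array (bars from 0, PGF2alpha red, vehicle blue), each panel with its own scale. The macrophage and neutrophil bars are higher on all 3 PGF2alpha arrays with the maximum on replicate 2, the luteal bars are lower with replicate 3 at 143052, and the hepatocyte bars are no higher after PGF2alpha.

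The pattern of CP over the 6 arrays was set beside that of 9979 other tested genes by Pearson's r on log2(signal + 40), using MmugDNA.18925.1.S1_at. These values are a description of likeness, since the 6 arrays fall into 2 groups and genes are not independent replicates. The highest values belonged to ANXA4, a calcium-dependent membrane-binding annexin (r = 0.997), EVI2B, a surface protein of leukocytes (0.997), and HTRA2, a mitochondrial serine protease (0.994). They were followed by CD180, a toll-like receptor relative of B cells and myeloid cells (0.993), ABRACL (0.992), the protocadherin PCDH7 (0.991), glutaredoxin GLRX (0.990), the phosphatase PPM1M (0.989), the kinase OXSR1 (0.987) and the focal adhesion protein TES (0.987). An r above 0.9 was reached by 468 genes (4.69%), so these 10 are the end of a long list.

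These genes shared the shape of the CP profile but not its size. EVI2B read 3447, 3136 and 1067 after PGF2alpha and 631, 335 and 531 after vehicle, and PCDH7 read 1820.0, 989 and 319 against 64.2, 28.7 and 72.0. ANXA4, with a smaller log2 difference of 0.87, read 6112, 5084 and 3638 against 2748, 2267 and 2885. In all 3, replicate 3 was the lowest treated array and vehicle replicate 5 the lowest vehicle array, as for the CP probe set used. PCDH7 had a log2 difference of 3.25, nearest to CP among the 10, and PPM1M had the smallest, at 0.59.

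STAR had the most opposite profile of all genes compared (r = -0.999). Its signal was 33832, 36464 and 50313 on PGF2alpha replicates 1, 2 and 3 and 58817, 71945 and 59423 on vehicle replicates 4, 5 and 6. The array with the most CP had the least STAR. Vehicle replicate 5, highest in STAR, was lowest in CP by MmugDNA.18925.1.S1_at and MmugDNA.4235.1.S1_at, whereas Mmu.3346.2.S1_at was lowest on vehicle replicate 6 and MmugDNA.351.1.S1_at on vehicle replicate 4. The potassium channel KCND1 (r = -0.997) and the calmodulin-dependent kinase CAMK2G (r = -0.993) came next. The order depended on the CP probe set and the pseudocount. For STAR r was -0.981 with MmugDNA.4235.1.S1_at, -0.958 with Mmu.3346.2.S1_at and -0.678 with MmugDNA.351.1.S1_at, where it stood at ranks 24, 98 and 1215 from the lowest, and -0.997 and -0.989 with pseudocounts of 10 and 160.

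**Figure D3:**
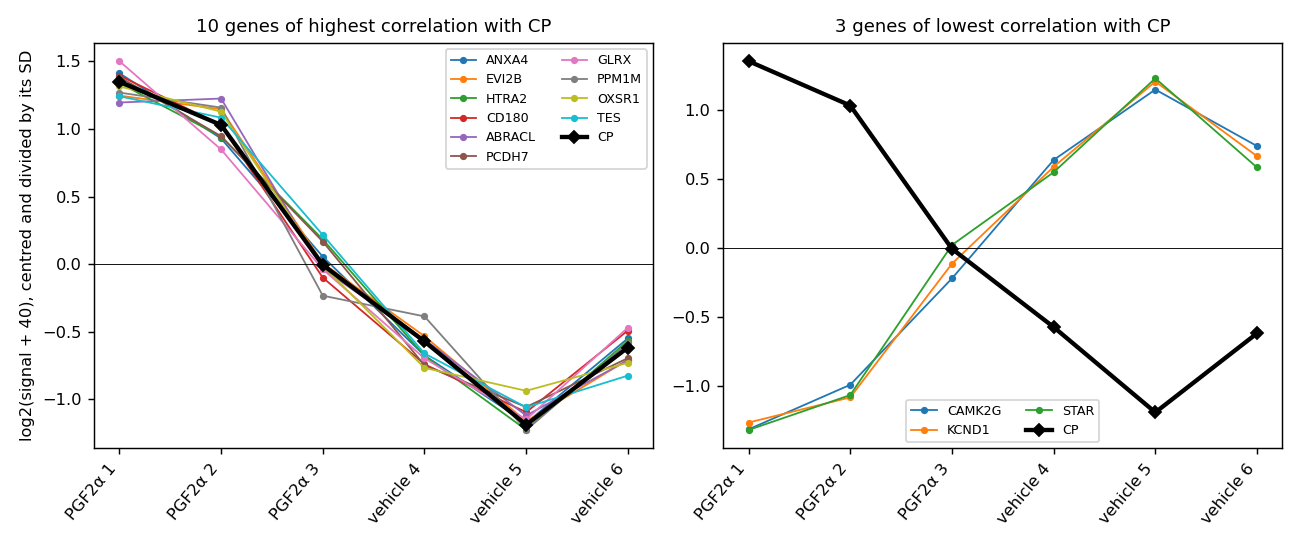
Profiles over the 6 arrays of CP (black diamonds, probe set MmugDNA.18925.1.S1_at) with the 10 genes of highest r (left) and the 3 of lowest r (right), as log2(signal + 40) centred on the mean of each gene and divided by its SD. Lines join separate arrays and mark no time course. On the left all genes peak on PGF2alpha replicates 1 and 2 and reach their minimum on vehicle replicate 5, and STAR on the right runs opposite to CP.

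The genes that work with ceruloplasmin were then read from 8 lists. Differences were tested with limma over 26944 probe sets that passed the brightness filter, with Benjamini-Hochberg adjustment over all of them and a threshold of 0.05, and a gene was read from its tested probe set of highest mean. Of 9980 tested genes 3.76% were called higher and 2.31% lower after PGF2alpha, and the median log2 difference was -0.02.

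Neither tested relative of CP passed the test. Hephaestin (HEPH), the membrane-bound ferroxidase of the same family, read 200, 152 and 144 after PGF2alpha and 222, 334 and 230.2 after vehicle. The treated values lay below the vehicle values, but the log2 difference of -0.55 did not pass (adjusted p = 0.217 by limma). Coagulation factor V (F5), whose A domains are related to those of ceruloplasmin, stood at 1.33 (adjusted p = 0.108 by limma). It read 169, 310.4 and 143 against 79.2, 13.4 and 92.6. It passed the brightness filter only through the treated arrays, so its lack of overlap says nothing about F5. HEPHL1 was below the median of every array and was not tested. Of this list 0 of 2 tested genes passed, although both had an unadjusted p under 0.05.

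Genes that take up, carry and store copper, which ceruloplasmin receives in the secretory pathway, showed no called change. Of 11 tested genes for copper uptake, chaperoning and storage 0 passed in limma and 5 had an unadjusted p under 0.05, with a median log2 difference of -0.15. The copper importer SLC31A1 read 2909.9, 3887 and 3574 after PGF2alpha and 3218, 2472 and 2875 after vehicle, with overlap and a difference of 0.27 (adjusted p = 0.388). The copper pump ATP7A, which loads copper into the Golgi, overlapped fully, with 544, 369.9 and 1056 against 597, 400.0 and 1074 and a difference of -0.08 (adjusted p = 0.934). ATP7B, the pump that loads ceruloplasmin in liver, and the copper chaperone ATOX1 were not analysed here. The chaperone CCS, which hands copper to superoxide dismutase, stood at -1.02 (adjusted p = 0.0702), and metallothionein MT2A, a metal-binding storage protein, at 0.75 (adjusted p = 0.122). CCS passed the brightness filter only through the vehicle arrays, so its lower treated signals are no support for a fall. The list gained 1 call without PGF2alpha replicate 3 and 1 without vehicle replicate 5.

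Other copper enzymes gave 0 calls among 6 tested genes in limma, with 3 at an unadjusted p under 0.05 and a median of 0.28. Lysyl oxidase (LOX), which cross-links collagen, read 1266, 1093 and 1589 after PGF2alpha and 658, 951 and 614 after vehicle. Its groups did not overlap, and its difference of 0.80 did not pass (adjusted p = 0.0598). Superoxide dismutase SOD1 stood at -0.46 (adjusted p = 0.143). Without vehicle replicate 5, 1 gene of this list was called.

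Iron handling genes gave calls in both directions. Of 46 genes 34 were named on the array and 27 tested, of which 2 rose (7.41%, beside 3.76% of all tested genes) and 2 fell (7.41%, beside 2.31%), with a median of -0.07. Ferroportin (SLC40A1), the iron exporter that ceruloplasmin serves, was abundant and overlapped between the groups, with 5683, 6849 and 6563 after PGF2alpha and 5476, 4853 and 6334 after vehicle (log2 difference 0.20, adjusted p = 0.491 by limma). The transferrin receptor TFRC stood at -0.30 (adjusted p = 0.599) and the ferritin light chain FTL at -0.48 (adjusted p = 0.17). HP, the haptoglobin that binds free hemoglobin, read 1299.9, 929 and 2642 against 11736, 1816 and 2487, with overlap and a difference of -1.33 that did not pass (adjusted p = 0.266). Without vehicle replicate 4, the highest array, HP stood at -0.51 (adjusted p = 0.542). TF, FTH1, HMOX1 and CD163 were not analysed here.

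The iron genes that rose were a metal importer and an iron scavenger. SLC39A14, which takes up zinc and iron that is not bound to transferrin, read 769, 703 and 584 after PGF2alpha and 420.3, 316 and 356 after vehicle, a log2 difference of 0.84 (SE 0.18, adjusted p = 0.0313 by limma). LCN2, which binds bacterial iron carriers and is also a neutrophil product, read 11367, 12180 and 7006 against 3056, 6486 and 2954 (1.34, adjusted p = 0.0441), from a probe set that can cross-hybridise. The call of SLC39A14 was lost without PGF2alpha replicates 1 and 2 (adjusted p = 0.110 in both cases) and without vehicle replicates 4, 5 and 6 (adjusted p = 0.0511, 0.0826 and 0.107). That of LCN2 was lost without PGF2alpha replicates 1 and 2 (adjusted p = 0.140 and 0.160) and vehicle replicates 4 and 6 (adjusted p = 0.130 and 0.150). LCN2 also missed the threshold with a term for the run (adjusted p = 0.0565), with quantile normalization (0.0503), with no filter (0.0750), with no variance trend (0.0860) and with robust variance moderation (0.0563).

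The iron genes that fell both act in heme handling. SLC48A1, which carries heme out of the endolysosome, read 981, 484 and 1146 after PGF2alpha and 3607, 2929.7 and 2109.7 after vehicle. It fell by 1.73 on the log2 scale (adjusted p = 0.0184 by limma), while its other tested probe set stood at 0.22 (adjusted p = 0.438). BLVRB, a biliverdin reductase of heme breakdown, fell by 0.94 (adjusted p = 0.0426), from 912 ± 114 to 467 ± 131 (SD, n = 3). The call of SLC48A1 was lost without PGF2alpha replicate 1 (adjusted p = 0.0504) and vehicle replicates 4 and 5 (adjusted p = 0.0585 and 0.0574). That of BLVRB was lost without PGF2alpha replicates 1 and 2 (adjusted p = 0.0983 and 0.115) and vehicle replicates 4, 5 and 6 (adjusted p = 0.0776, 0.103 and 0.150). Over the whole list, leaving out PGF2alpha replicate 1, 2 or 3 in turn left 0, 1 or 6 of the 27 genes called, and leaving out any one vehicle array left 1.

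Acute phase proteins, the class to which ceruloplasmin belongs, were tested in part. Of 31 genes 25 were named, 14 were tested and 9 were below the array median on all 6 arrays, among them the liver products CRP, APCS, ORM1 and the fibrinogen chains. Of the 14 tested genes 2 rose and 0 fell, beside 3.76% higher and 2.31% lower among all tested genes, with a median of 0.09. Pentraxin PTX3, an acute phase protein made in tissues by myeloid and stromal cells, read 1500.4, 2829 and 705 after PGF2alpha and 190.1, 271 and 322 after vehicle. It rose by 2.33 (SE 0.42, adjusted p = 0.0184 by limma), and the other member that rose was LCN2. The call of PTX3 was lost without PGF2alpha replicates 1 and 2 (adjusted p = 0.0666 and 0.0548) and vehicle replicates 4 and 5 (adjusted p = 0.0585 and 0.0534). Of 3 tested negative acute phase proteins, whose plasma levels fall in inflammation, 0 passed in limma and 1 had an unadjusted p under 0.05.

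**Figure D4:**
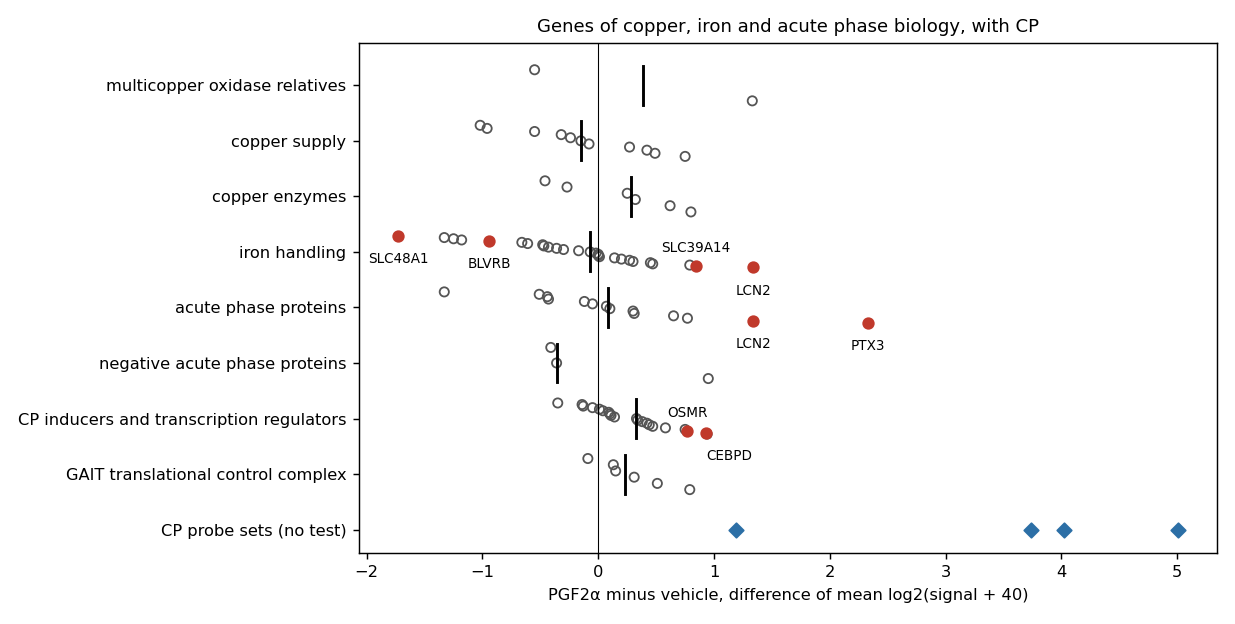
Difference of mean log2(signal + 40), PGF2alpha minus vehicle, for each tested gene of the 8 lists (open circles, not called; red, adjusted p under 0.05 by limma; black bar, list median) and for the 4 CP probe sets (blue diamonds, no test). Called genes lie between -1.73 and 2.33, and CP between 1.19 and 5.01.

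The probe set that stands for a gene hid part of the acute phase class. Counting a gene where any of its tested probe sets passed, a rule added after the values were seen, 5 of 14 acute phase genes were called higher (35.7%) and 0 lower, beside 4.63% and 2.98% of all tested genes. The genes added were SERPINA3, SERPINA1 and CFB. Leaving out PGF2alpha replicate 1, 2 or 3 turned the count of 5 into 2, 1 or 6, and leaving out vehicle replicate 4, 5 or 6 turned it into 2, 3 or 3. SERPINA3 and CFB owed their calls to probe sets that entered the test only through the treated arrays, so this count is no support for the class. With the filter removed, the same rule called 4 of these 14 genes higher (28.6%), SERPINA3, SERPINA1, CFB and PTX3, beside 2.93% of all tested genes. The acute phase genes had a mean of 1.86 tested probe sets and all tested genes 1.67. In the iron list the same rule added SLC39A8, which gave 3 of 27 genes higher (11.1%). Leaving out PGF2alpha replicate 1, 2 or 3 turned these 3 into 0, 0 or 4, and leaving out vehicle replicate 4, 5 or 6 turned them into 0, 2 or 0. With the filter removed, the same rule called only SLC39A8 higher, 1 of the 27 iron genes (3.70%), beside 2.93% of all tested genes.

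SERPINA3, the secreted inhibitor alpha-1-antichymotrypsin, had 5 tested probe sets that disagreed. The probe set MmuSTS.2150.1.S1_at read 1241, 779.8 and 962 after PGF2alpha and 63.3, 70.3 and 23.7 after vehicle, and it rose by 3.50 (adjusted p = 0.00142 by limma). Mmu.10083.1.S1_s_at read 699.7, 524 and 553 against 11.1, 23.6 and 14.0 and rose by 3.49 (adjusted p = 0.00126). The other 3 stood between -0.15 and -0.05, with overlapping groups, and 1 of these was the brightest and stood for the gene. Unlike CP, both called probe sets gave similar signals on the 3 treated arrays. The vehicle signals of both were below the array medians, so both entered the test only through the treated arrays and their folds are uncertain in size. With no filter each had an adjusted p of 0.00197 by limma.

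SERPINA1, alpha-1-antitrypsin, also had probe sets that disagreed, here in the sign of the difference. MmugDNA.24291.1.S1_s_at rose by 2.08 (adjusted p = 0.0103 by limma) and MmugDNA.1704.1.S1_at by 1.91 (adjusted p = 0.0165). Its other 3 tested probe sets stood between -0.66 and -0.50 and did not pass. The brightest of these 3 read 2480.4, 2080.1 and 1977 after PGF2alpha and 3220.2, 3201 and 2878 after vehicle (adjusted p = 0.0815 by limma). MmugDNA.24291.1.S1_s_at read 1929, 1902 and 893 after PGF2alpha and 444, 304 and 243 after vehicle, with replicate 3 lowest of the treated arrays as for CP. Without PGF2alpha replicate 2 neither of the probe sets that rose was called (adjusted p = 0.0572 and 0.0735). Without replicate 1 MmugDNA.1704.1.S1_at was not (adjusted p = 0.0644).

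Complement factor B (CFB) rose by 2.06 in MmugDNA.12153.1.S1_at (adjusted p = 0.0257 by limma) from vehicle signals of 19.2, 26.4 and 23.2. These were below the array medians, so the probe set entered the test only through the treated arrays and its fold is uncertain in size. With no filter its adjusted p was 0.0399. Its brighter probe set stood at 0.31 (adjusted p = 0.295). Only leaving out PGF2alpha replicate 3 kept this call: adjusted p rose to 0.0730 or 0.113 when replicate 1 or 2 was dropped, and to 0.0661, 0.0580 or 0.0725 when vehicle replicate 4, 5 or 6 was.

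SLC39A8, an importer of zinc, manganese and iron, had 4 tested probe sets, of which 3 rose, by 1.06, 1.95 and 1.40 (adjusted p = 0.0314, 0.0429 and 0.0207 by limma). The brightest stood at 0.45 (adjusted p = 0.294). MmugDNA.35785.1.S1_at read 3863, 3994 and 2334 after PGF2alpha and 1671, 1293 and 1755 after vehicle, without overlap. Of the 6 arrays left out in turn, only PGF2alpha replicate 3 could be dropped with the call kept: adjusted p rose to 0.111 or 0.118 without replicate 1 or 2, and to 0.0744, 0.0873 or 0.0790 without vehicle replicate 4, 5 or 6. Without PGF2alpha replicate 1 or 2 none of the 3 passed. MmugDNA.42764.1.S1_at, the one that rose by 1.95, entered the test only through the treated arrays. Its call was lost with no filter (adjusted p = 0.0797), with a term for the run (0.0556) and with no variance trend (0.0669).

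**Figure D5:**
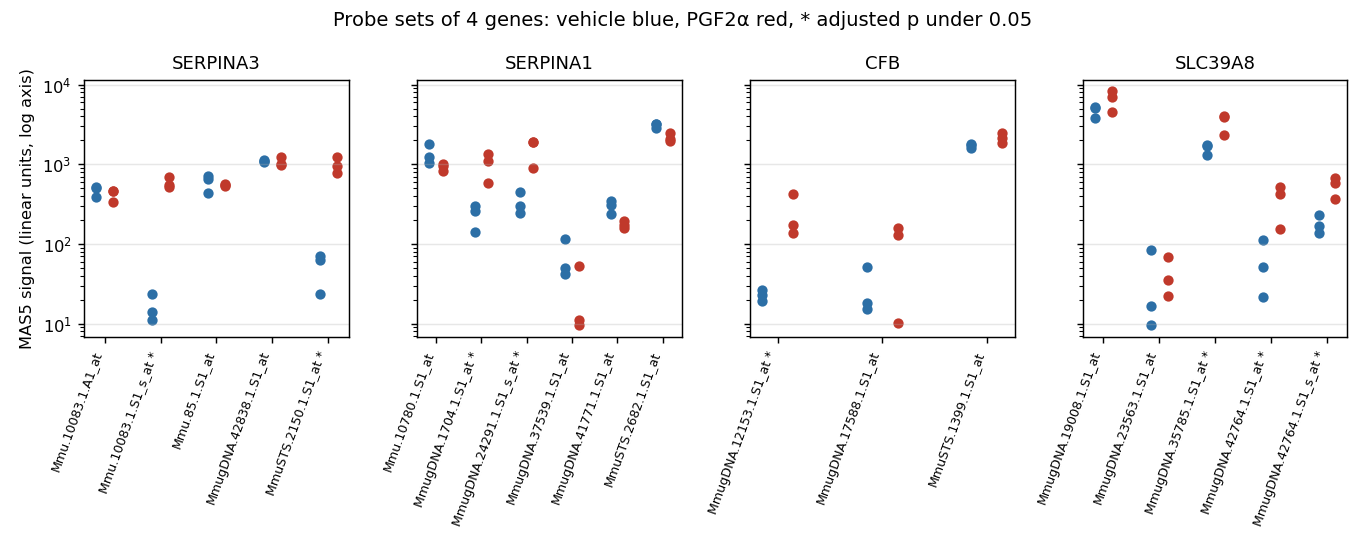
MAS5 signal (log axis) of every probe set of SERPINA3, SERPINA1, CFB and SLC39A8 on the vehicle arrays (blue) and PGF2alpha arrays (red), 1 point per array; an asterisk marks an adjusted p under 0.05 by limma. Within each gene some probe sets separate the groups and the brightest does not carry a call.

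A further list held cytokines that induce CP, their receptors and signalling genes, and transcription factors. In it 2 of 21 tested genes rose and 0 fell. Among all tested genes 3.76% rose and 2.31% fell. The list had a median of 0.33, and 17 of 21 had a positive difference against 4793 of all 9980 tested genes. OSMR, the receptor subunit for oncostatin M, read 13201, 11393 and 12808 after PGF2alpha and 6699, 7854 and 7302 after vehicle, and rose by 0.77 (adjusted p = 0.0138 by limma). A dimmer OSMR probe set rose by 0.93 (adjusted p = 0.0157), and the third stood at 0.12 (adjusted p = 0.781). CEBPD, a transcription factor of the acute phase response, rose by 0.93 (adjusted p = 0.0197), with 3759, 3120.3 and 3953 against 2187, 1557 and 1916. Both genes had close treated values, without the drop on replicate 3 seen in CP. The call of OSMR was lost without PGF2alpha replicate 1 (adjusted p = 0.0603) and vehicle replicate 6 (adjusted p = 0.0572). That of CEBPD was lost without PGF2alpha replicates 1 and 2 (adjusted p = 0.0749 and 0.0541) and vehicle replicates 5 and 6 (adjusted p = 0.0520 and 0.0693).

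The cytokines themselves gave low signals. IL6 read 94.5, 124 and 94.7 after PGF2alpha and 71.3, 54.9 and 57.1 after vehicle, and was not tested. Its other probe set, also not tested, had a log2 difference of 0.15. IFNG lay below the median of every array and was not tested either, with 24.7, 19.1 and 15.8 against 48.4, 54.1 and 47.0. IL1B overlapped between the groups in its tested probe set (0.47, adjusted p = 0.382 by limma). Its 2 other probe sets, not tested, had differences of 0.80 and 1.16. STAT3, the factor through which interleukin-6 acts, read 1093, 625 and 670.4 against 450.4, 444 and 281, without overlap, and its difference of 0.94 did not pass (adjusted p = 0.0678). HIF1A was not analysed here.

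The GAIT complex binds the CP messenger in interferon-treated myeloid cells and stops its translation. Its list also holds genes outside the complex, such as the kinase DAPK1. This list gave 0 calls among 6 tested genes in limma, with 3 at an unadjusted p under 0.05 and a median of 0.23. The RNA-binding member SYNCRIP stood at 0.51 (adjusted p = 0.0964), GAPDH at 0.31 (adjusted p = 0.222) and the kinase DAPK1 at 0.79 (adjusted p = 0.137). The probe sets read for SYNCRIP and GAPDH can cross-hybridise. The 6 other tested SYNCRIP probe sets stood between -0.49 and 0.13, and none was called. DAPK1 read 2135, 2375 and 1081 after PGF2alpha and 1009, 1131 and 894 after vehicle, so that replicate 3 lay among the vehicle arrays. EPRS and RPL13A were not analysed here. Without PGF2alpha replicate 3, 2 genes of this list were called.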

How the data were processed

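Total RNA of 6 corpora lutea was hybridised to Affymetrix arrays of the Rhesus chip type. The authors made one intensity per probe set, on a linear scale, with MAS5, per the labels (version not given in the sources used here). Because every array had a trimmed mean of 500.0 (2% off each end), no further normalization was applied. Median signals lay between 115 and 134. The scanner files hold settings and no expression value. Symbols came from a platform annotation that can be old; 99 control probe sets were left out of the tests.

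Values were taken as log2(signal + 40). Probe sets at or above the median of their array in at least 3 arrays (26944) entered a two-sided limma fit (version 3.58.1, R 4.3.3, lmFit and eBayes with trend), with no covariate; the test was checked on simulated data. The number of arrays limits the precision. Groups and replicate numbers came from sample titles. The CP probe sets and all lists were chosen with earlier results of these data known. Named genes were CP, list members past the threshold (up to 6 of smallest p), a fixed set of copper, iron, cytokine and GAIT genes, and the 10 genes of highest and 3 of lowest r with CP. SERPINA3, SERPINA1, CFB, SLC39A8, F5, HEPHL1, CCS, MT2A, LOX, SOD1, SYNCRIP, GAPDH, DAPK1 and the marker genes were named after their values were seen. Of the marker lists, lymphocyte (T, NK and B), endothelial, fibroblast, epithelial and red cell genes were also read. Higher were 1, 1, 2, 0 and 0 and lower 0, 0, 0, 1 and 0 of 4, 9, 6, 6 and 3 tested. Among all tested genes 3.76% were higher and 2.31% lower. Alternatives were other scalings, pseudocounts, filters and variance models, the run as a block or run 1 alone, array weights, each array left out, and no cross-hybridising probe sets.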

Additional observations from a re-analysis of the deposited data

How the results depend on the processing

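No paired analysis was possible because the groups share no replicate number. The CP differences stayed positive under all alternatives. Each moved by less than the SD of its treated log2 values. Those SDs were wide, from 1.26 to 2.23, so this is a loose limit. Without single arrays the differences ran from 3.03 to 4.66 for Mmu.3346.2.S1_at and 3.31 to 5.03 for MmugDNA.18925.1.S1_at. They ran from 4.15 to 6.27 for MmugDNA.4235.1.S1_at and 0.48 to 1.67 for MmugDNA.351.1.S1_at. The 1351 called probe sets became 669 without a variance trend, 826 without a filter, 51 within run 1, and 223 to 1903 without single arrays. The 4 iron calls became 1 without a trend, 1 without a filter, 0 within run 1, 2 by any probe set with no filter, and 0 to 6 without single arrays. The 2 acute phase calls became 4 with array weights, 1 without a trend, 1 without a filter, 1 with quantile normalization, 0 within run 1, 5 by any tested probe set, 4 by any probe set with no filter, and 0 to 3 without single arrays. The 2 calls in the list of inducers and regulators became 0 within run 1 and 0 to 3 without single arrays. Copper supply went from 0 to 2 with array weights, 1 without a trend, 1 at the 70th percentile filter and 0 to 1 without single arrays. Copper enzymes went from 0 to 1 with array weights, with the 70th percentile filter and with scaling to one median, and to 0 to 1 without single arrays; the GAIT list ran from 0 to 2 without single arrays. The causes were not tested, other than that leaving arrays out or taking run 1 alone leaves fewer samples. Detection calls were not used, so vehicle CP has no level against background.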
